A study of Mus musculus with 8 samples.

Results

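The genes described here encode the proteins of the mitochondrial ribosome. They were taken by name, as all genes on the array whose symbol is Mrpl or Mrps followed by a digit, and numbered 76 of the 16593 genes measured. Each gene was represented by its brightest probe over the 8 arrays, out of 110 probes in all, and 22 of the genes had more than 1 probe. The data are bead-array signals of total RNA from the tibialis anterior, a fast muscle of the lower leg, taken from male mice of the inbred strain C57BL/6 at 8 weeks of age. Muscles on both sides of the animals had been transfected with a plasmid and were taken 7 days later. In 4 muscles the plasmid encoded spermine oxidase, the enzyme that turns spermine into spermidine with release of hydrogen peroxide and an aldehyde, and in 4 it was a control plasmid whose content the labels do not describe. Both groups therefore carried a transfection. A whole muscle was measured, so transfected and untransfected fibres and other cells were mixed, and neither the promoter of the plasmid nor the share of transfected fibres is stated in the labels. Whether each muscle is from a different mouse is not stated, and the p-values then reflect only how these samples scatter, which may be technical.

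The mitochondrial ribosome is built in the matrix from RNAs encoded by mitochondrial DNA and from proteins whose genes lie in the nucleus. It makes only the few proteins encoded by mitochondrial DNA, which are core subunits of the respiratory complexes, and skeletal muscle depends on them for its aerobic energy supply. The small subunit reads the messenger RNA, the large subunit joins the amino acids, and each contains counterparts of bacterial ribosomal proteins beside proteins found only in mitochondria. Transcription factors known to act on such genes include GABPA (an ETS factor also called nuclear respiratory factor 2), NRF1 and YY1.

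Of the 76 genes, 49 encode proteins of the large subunit and 26 of the small subunit. Mrps30 and Mrps18a belong to the large subunit in spite of their names. Mrps36 was named as a ribosomal protein but is now known as a subunit of the 2-oxoglutarate dehydrogenase complex. By origin, 46 are counterparts of bacterial proteins and 29 are specific to mitochondria. Mrpl41 and Mrpl44 were not analysed here.

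RefSeq promoter windows (build GRCm38.p6, 250 bases before to 50 after a gene's start) were found for 67 of the 76 genes, 73 windows in all. The letters CCGGAAG of the ETS motif that GABPA binds stood in 35.6% of these windows and in 12.2% of 16535 windows of all measured genes. The NRF1 letters CGCATGCG stood in 9.59% against 2.67%, and the YY1 letters AAGATGGCG in 11.0% against 2.00%. Both strands were searched, and CCGGAAG and AAGATGGCG can share the letters AAG where they meet. A match is a description of the letters only. The following 4 promoters are shown because they belong to the genes with the smallest p-value in either direction (Mrpl16 and Mrpl43), to the partner of a respiratory gene that starts beside it (Mrpl47), and to the gene with the YY1 letters and the smallest p-value (Mrpl36). They lie at chr19:11770165-11770464 on the plus strand (Mrpl16), chr19:45006393-45006692 on the minus strand (Mrpl43), chr3:32736706-32737005 on the minus strand (Mrpl47) and chr13:73330759-73331058 on the plus strand (Mrpl36). They are written 5′ to 3′ along the gene, and capitals mark a match to any of the 3 sets of letters.
Mrpl16: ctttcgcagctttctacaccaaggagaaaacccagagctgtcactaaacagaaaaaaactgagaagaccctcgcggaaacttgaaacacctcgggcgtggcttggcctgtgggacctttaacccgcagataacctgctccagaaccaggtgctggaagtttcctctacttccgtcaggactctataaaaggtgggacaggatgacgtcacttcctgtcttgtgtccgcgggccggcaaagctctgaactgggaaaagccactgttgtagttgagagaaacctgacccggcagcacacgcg
Mrpl43: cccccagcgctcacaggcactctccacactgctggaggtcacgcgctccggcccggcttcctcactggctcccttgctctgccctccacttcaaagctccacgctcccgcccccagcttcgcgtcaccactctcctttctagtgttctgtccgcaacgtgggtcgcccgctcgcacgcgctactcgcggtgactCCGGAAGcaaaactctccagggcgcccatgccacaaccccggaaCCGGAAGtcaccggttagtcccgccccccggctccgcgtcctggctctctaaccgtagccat
Mrpl47: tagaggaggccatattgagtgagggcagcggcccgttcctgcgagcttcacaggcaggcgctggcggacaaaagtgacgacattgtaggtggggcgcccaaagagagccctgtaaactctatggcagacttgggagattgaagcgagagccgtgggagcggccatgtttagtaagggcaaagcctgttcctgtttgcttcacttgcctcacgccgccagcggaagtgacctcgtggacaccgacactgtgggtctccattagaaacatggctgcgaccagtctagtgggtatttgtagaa
Mrpl36: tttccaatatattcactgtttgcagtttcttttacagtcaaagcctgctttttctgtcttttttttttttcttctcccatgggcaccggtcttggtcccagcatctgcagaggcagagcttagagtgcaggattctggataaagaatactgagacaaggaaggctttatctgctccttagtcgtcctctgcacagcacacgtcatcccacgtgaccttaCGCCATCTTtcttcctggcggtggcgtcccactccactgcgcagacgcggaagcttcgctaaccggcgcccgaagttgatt
Mrpl43 held the ETS letters at 2 places, beginning 56 and 12 bases before its start, and Mrpl36 held the YY1 letters on the reverse strand, beginning 31 bases before its start. In the windows of Mrpl16 and Mrpl47 none of these letters was found.

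Values below are log2 signals on the scale the authors normalized. A difference is the spermine oxidase mean less the control mean, with its limma standard error after the ± sign. Each array had its median at 8.33, and single values ran from 8.10 to 15.29 with a floor at the low end. The brightness of a probe is no measure of how abundant its mRNA is compared with another gene's. Markers of muscle fibres stood near the top of the scale in both groups, with Acta1, the skeletal actin, at 15.01 ± 0.07 in control and 15.00 ± 0.03 in spermine oxidase muscles (SD, n = 4), while Myh7, the slow myosin, lay at the floor at 8.23 ± 0.01 in control muscles. Smox, the gene on the plasmid, was higher in each of the 4 spermine oxidase muscles than in any control muscle on each of its 5 probes (exact two-sided permutation p = 0.0286 for each, the smallest that 4 against 4 allows). Its brightest probe differed by 1.16 ± 0.28 from 10.78 in control muscles, and the 3 probes near the floor in control muscles by 3.30 to 3.44. Control replicate 4 and spermine oxidase replicate 1 stood apart from the other muscles of their groups in several gene groups.

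The mRNAs of the mitochondrial ribosome differed little between the groups of muscles. Of the 76 genes, 43 were higher and 33 lower after spermine oxidase, the median difference was 0.030, and differences ran from -0.16 for Mrpl43 to 0.28 for Mrps21, which are 1.12-fold lower and 1.21-fold higher. With limma over all genes and no replicate block, 0 of 76 passed an adjusted p of 0.05 (0 of 16593 genes in all, or 0%). The smallest adjusted p was 0.179. With a block on the replicate number 2 of 76 passed, Mrpl16 and Mrpl43, beside 1.60% of all genes. Without the block, at an unadjusted p of 0.05 there were 9 of 76, or 11.8%, beside 11.0% of all genes. Of these 7 were higher (6.33% of all genes) and 2 lower (4.72% of all genes). The groups did not overlap for 7 of 76, or 9.21%, beside 6.18% of all genes, with 5 higher (3.66% of all genes) and 2 lower (2.51% of all genes). These shares lay close to those of all genes, and over all genes the median difference was -0.00064. Beside genes as bright as most members, the share at an unadjusted p of 0.05 was lower. It was 9 of the 70 members whose mean reached the array median, or 12.9%, beside 18.5% of the 8894 such genes. The groups did not overlap for 7 of these 70, beside 8.93% of the 8894 genes. The difference between these shares was not tested.

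The absence of calls without the block came with narrow intervals. The 95% interval of the difference lay within 0.5 log2 units of 0, or 1.41-fold, for all 76 genes, and its furthest reach was 0.49 upwards for Mrps21 and -0.35 downwards for Mrpl47. Of all genes on the array 93.8% had an interval within that bound, and 88.4% of the 8894 genes whose mean reached the array median. Of the 76 genes, 70 had a mean signal at or above the array median and 6 below it, where the floor compresses any difference. The dimmest were Mrps36 at 8.19, Mrpl21 at 8.21 and Mrpl19 at 8.23, and their intervals say little about their mRNAs. The probes with the highest signals were those of Mrps24, Mrpl33 and Mrpl42, with means of 13.34, 13.29 and 13.06. Their differences were 0.09 ± 0.05, 0.06 ± 0.04 and 0.08 ± 0.09. A second Mrpl33 probe, at 13.20 in control muscles, differed by -0.009 ± 0.065.

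**Figure D1:**
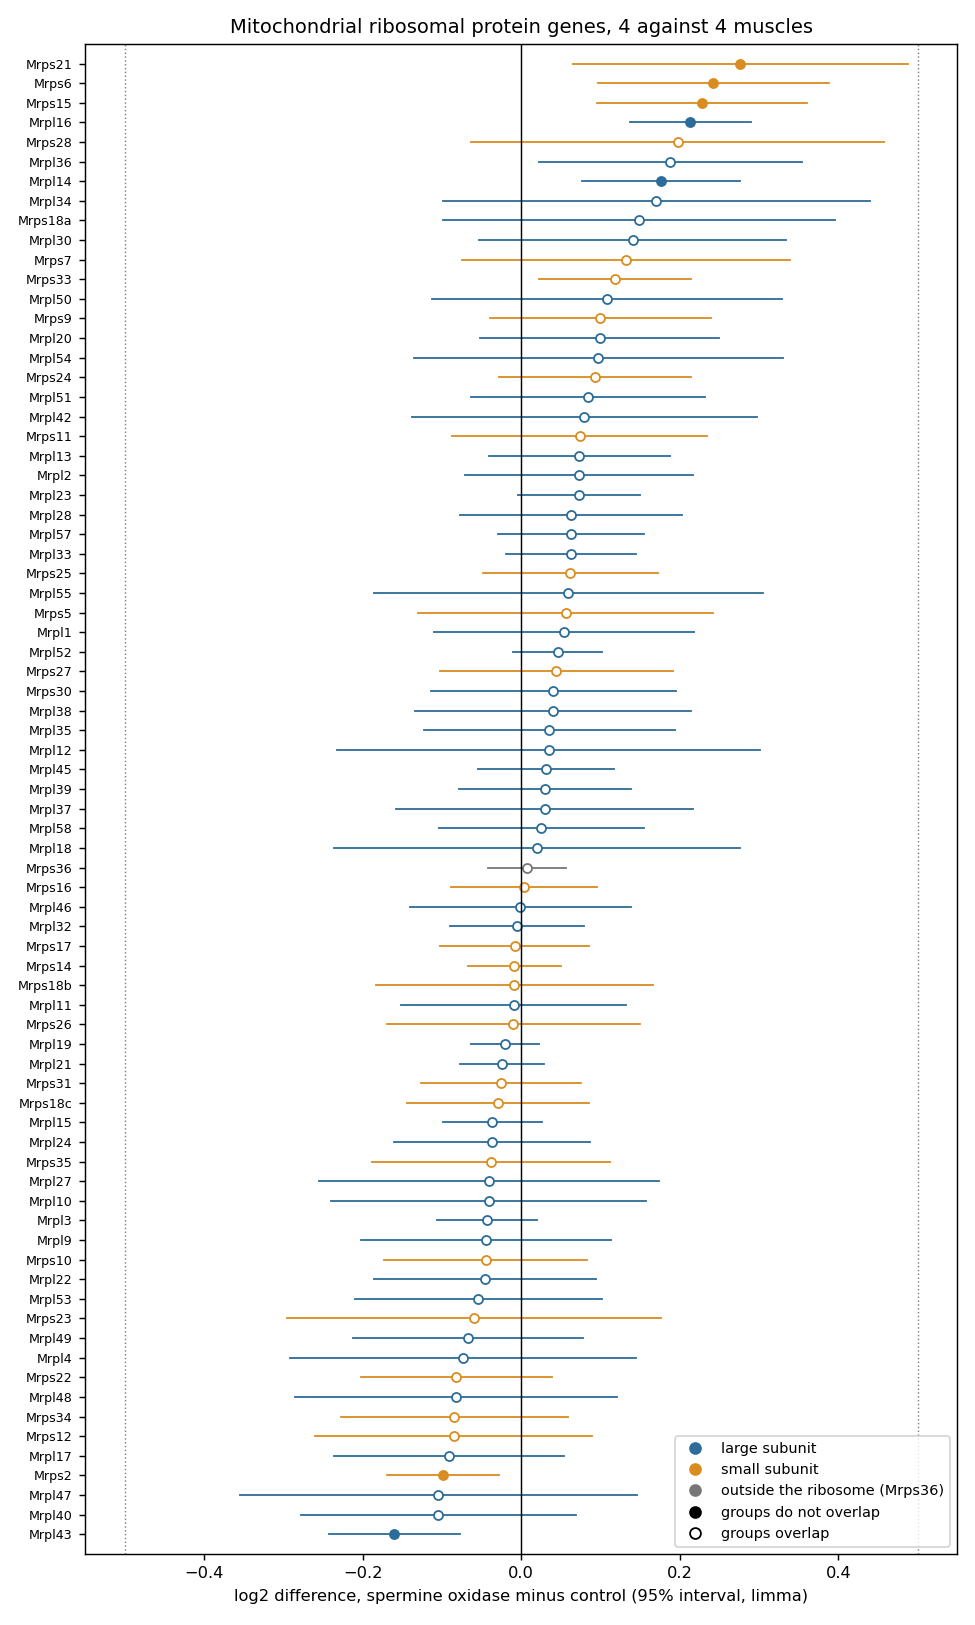
Log2 differences (spermine oxidase minus control, x axis) of the 76 genes with 95% intervals from limma, ordered by size and coloured by subunit, with filled points where the 4 control and 4 spermine oxidase muscles do not overlap. All intervals lie between the dotted lines at 0.5 log2 units either side of 0, and filled points are 5 above and 2 below 0.

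In the large subunit 29 of 49 genes were higher, with a median difference of 0.031, and in the small subunit 13 of 26, with a median of -0.0026. Counterparts of bacterial proteins were higher in 26 of 46 cases with a median of 0.035, and proteins specific to mitochondria in 16 of 29 cases with a median of 0.030. Genes were also sorted by place in the large subunit, and these sets may be incomplete. In the set classed as stalk 3 of 6 genes were higher. In that of the central protuberance (which faces the head of the small subunit) 5 of 9 were higher, and around the exit of the peptide tunnel 3 of 7. No gene of these 3 places had groups that did not overlap, beside 6.18% of all genes, and the genes are few. Mrpl12, the stalk protein also known in human cells to bind mitochondrial RNA polymerase, differed by 0.03 ± 0.11.

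Among large subunit genes higher after spermine oxidase, Mrpl16, whose bacterial counterpart lies beside the site where aminoacyl-tRNA is bound, had the smallest p-value of all members. Its signal was 10.21, 10.18, 10.31 and 10.18 in control replicates 1 to 4 and 10.44, 10.40, 10.47 and 10.42 in spermine oxidase replicates 1 to 4. All spermine oxidase muscles were above all control muscles, the closest being control replicate 3 and spermine oxidase replicate 2. The difference was 0.21 ± 0.03 (limma adjusted p = 0.179, ranked 18 of 16593 by p-value). Mrpl14, which lies at the face between the subunits, read 11.84, 11.85, 11.71 and 11.74 in control replicates 1 to 4 and 11.99, 11.88, 11.99 and 11.98 in spermine oxidase replicates 1 to 4. The groups were apart by little, since spermine oxidase replicate 2 lay just above control replicate 2, and the difference was 0.18 ± 0.04 (limma adjusted p = 0.233). Mrpl36, the counterpart of a small bacterial protein, overlapped between groups, with 11.86 ± 0.10 in control and 12.05 ± 0.12 in spermine oxidase muscles (SD, n = 4) and a difference of 0.19 ± 0.07.

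In the small subunit the genes that stood highest against control were Mrps21, Mrps6 and Mrps15, each a counterpart of a bacterial protein. Mrps21 had the largest difference of all members, 0.28 ± 0.09 (limma adjusted p = 0.332). It read 12.32, 12.32, 12.28 and 11.99 in control replicates 1 to 4 and 12.61, 12.33, 12.57 and 12.51 in spermine oxidase replicates 1 to 4. The gap between the groups was small, since spermine oxidase replicate 2 lay just above control replicate 2, and control replicate 4 lay far below the other controls. Without control replicate 4 the difference was 0.20. Mrps6 ran from 9.92 to 10.17 in control muscles and from 10.24 to 10.43 after spermine oxidase, with a difference of 0.24 ± 0.06 (limma adjusted p = 0.254). Mrps15, which in bacteria binds early to the ribosomal RNA of the small subunit, ran from 9.36 to 9.51 and from 9.56 to 9.82, with a difference of 0.23 ± 0.06 (limma adjusted p = 0.247). Spermine oxidase replicate 1 was the highest muscle for each of these 3 genes. Mrps33, a small subunit protein specific to mitochondria, overlapped between groups and differed by 0.12 ± 0.04.

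The genes lower after spermine oxidase with the smallest p-values were Mrpl43, a large subunit protein specific to mitochondria, and Mrps2, a counterpart of a bacterial small subunit protein. Mrpl43 read 11.37, 11.44, 11.29 and 11.38 in control replicates 1 to 4 and 11.24, 11.23, 11.15 and 11.22 in spermine oxidase replicates 1 to 4. Every spermine oxidase muscle was below every control muscle, and the difference was -0.16 ± 0.04 (limma adjusted p = 0.209). The second probe of Mrpl43, at 10.45 in control muscles, overlapped between groups and differed by -0.06 ± 0.09. Mrps2 read 9.21, 9.14, 9.11 and 9.11 in control replicates 1 to 4 and 9.004, 9.08, 9.08 and 9.02 in spermine oxidase replicates 1 to 4. The groups were separate but close, and the difference was -0.10 ± 0.03 (limma adjusted p = 0.310). Mrps22 (-0.08 ± 0.05) and Mrpl3 (-0.04 ± 0.03), variants of which cause mitochondrial disease in humans, overlapped between groups, as did Mrpl17 near the tunnel exit (-0.09 ± 0.06) and Mrpl40 of the central protuberance (-0.10 ± 0.07).

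**Figure D2:**
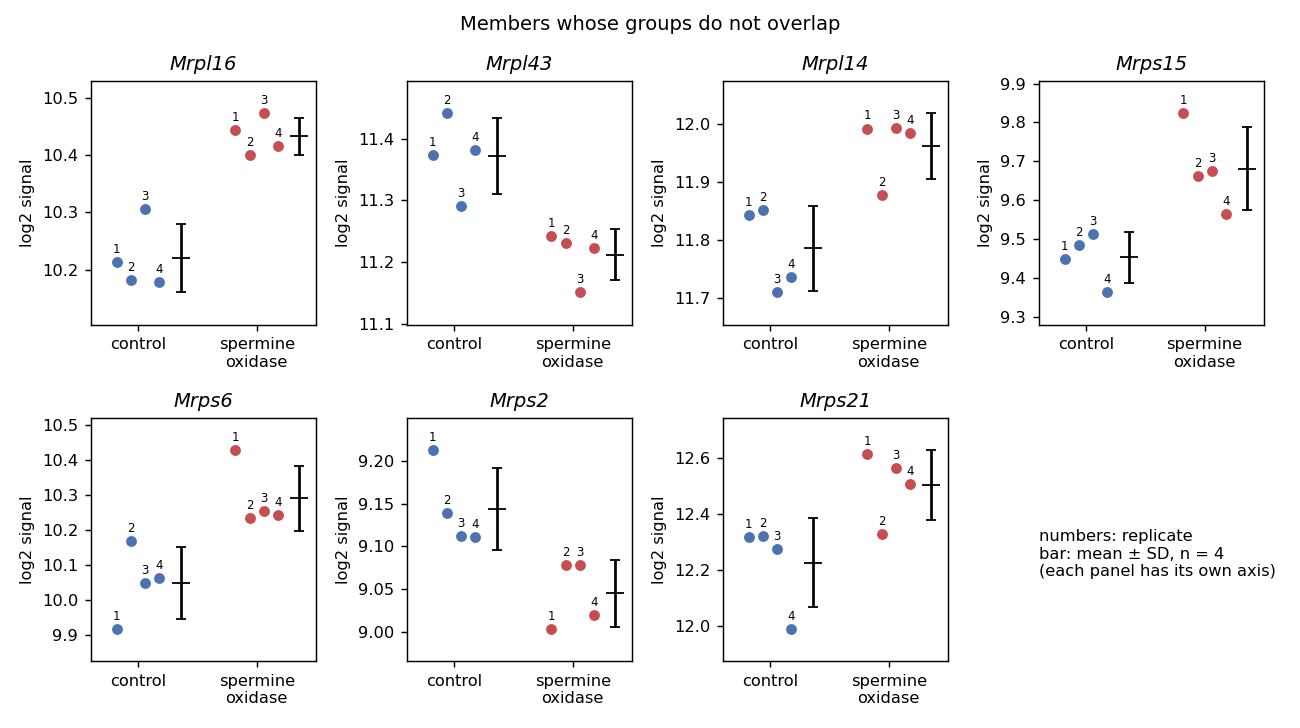
Log2 signal (y axis, a separate scale in each panel) of the 7 members whose groups do not overlap, 1 point for each of 4 control and 4 spermine oxidase muscles, numbered by replicate, with mean and SD. The 5 genes higher after spermine oxidase are Mrpl16, Mrpl14, Mrps15, Mrps6 and Mrps21, the 2 lower are Mrpl43 and Mrps2, and in Mrps21 the groups nearly touch.

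The exact two-sided permutation p of each of these 7 genes was 0.0286, the smallest that 4 against 4 allows. It follows from the absence of overlap by which they were picked and adds no evidence. Each of the 6.18% of all genes without overlap has the same value. The remaining members of the 10 higher genes with the smallest p-values were Mrpl23, at the tunnel exit (0.07 ± 0.03), Mrpl52, of the central protuberance (0.05 ± 0.02), and Mrps24, of the small subunit (0.09 ± 0.05), all with overlapping groups. Of the 22 genes with more than 1 probe, 11 had probes that all differed in the same direction and 11 had probes of both signs. Mrpl48 was an example, with its brightest probe at -0.08 ± 0.09 and the next at 0.11 ± 0.07.

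The ribosomal genes varied between muscles of the same group by more than they differed between groups. For each muscle the mean over the 76 genes of the deviation from a gene's own 8-muscle mean was taken. It was 0.038, 0.037, -0.055 and -0.080 in control replicates 1 to 4 and 0.111, -0.031, -0.017 and -0.002 in spermine oxidase replicates 1 to 4. The group means were -0.015 ± 0.061 and 0.015 ± 0.065 (SD, n = 4), so the groups overlapped widely. Spermine oxidase replicate 1 was the highest of the 8 muscles for 36 of the 76 genes, and control replicate 3 or 4 was the lowest for 42. The direction of the median difference changed without some of these muscles. It was -0.00066 without control replicate 4, -0.0024 without spermine oxidase replicate 1 and -0.024, with 28 of 76 genes higher, without both.

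Most members followed this order of muscles. Over the 8 muscles the correlation of a gene with the mean of the other 75 members had a median of 0.63, exceeded 0.5 for 48 genes and was below 0 for 11. These are descriptions, since all points share the same 8 arrays. The members most like the rest were Mrpl35 (0.96) and Mrpl12 (0.94), and the one most unlike was Mrps18c (-0.83), a small subunit protein. Of the 16517 other genes, those whose signal followed the mean of the members most closely over the 8 muscles were Rgs5 (Pearson r = 0.99, Spearman rho = 0.98), Rita1 (0.99 and 0.95), Krt10 (0.98 and 0.98), Ugp2 (0.98 and 0.98) and Prkag1 (0.98 and 0.98), a description of the closest among many genes with no test.

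Markers of other cell types also differed between these muscles. The 14 measured macrophage markers had a mean deviation of 0.415 in control replicate 4 and -0.507 in spermine oxidase replicate 1, the opposite ends to the ribosomal genes. Their mean signal ran from 11.59 to 12.05 in control muscles and from 11.13 to 11.66 after spermine oxidase, and 11 of 14 were lower. The 11 fibroblast markers stood at 0.440 and -0.326 in these muscles, and 10 of 11 were lower after spermine oxidase. Of 13 measured markers of satellite cells and regenerating fibres 12 were lower, with mean signals of 11.20 to 11.57 in control and 10.57 to 11.18 in spermine oxidase muscles. All 11 endothelium markers were higher, with mean signals of 9.80 to 9.86 and of 9.96 to 10.17. Of 10 measured adipocyte markers 7 were higher, with 8.77 to 8.86 and 8.89 to 9.002, and of 12 measured fibre markers 8 were higher, with 13.98 to 14.09 and 14.06 to 14.14. The smallest p-values among macrophage markers were those of Cd163 (0.22 ± 0.04), Ms4a7 (-0.71 ± 0.19) and C1qa (-0.43 ± 0.14), and among fibroblast markers Postn (-0.06 ± 0.03), Pdgfra (-0.20 ± 0.10) and Lum (-0.51 ± 0.26). Regenerating fibres were led by Myl4 (-0.87 ± 0.18), Ncam1 (-0.63 ± 0.16) and Chrng (-0.88 ± 0.24), and endothelium by Aqp1 (0.65 ± 0.10), Tek (0.34 ± 0.06) and Pecam1 (0.21 ± 0.04). Adipocyte markers were led by Adipoq (0.54 ± 0.16), Lep (0.17 ± 0.05) and Lipe (0.09 ± 0.03), and fibre markers by Myh4 (0.34 ± 0.11), Ryr1 (0.15 ± 0.05) and Pvalb (0.05 ± 0.02). Their part in the values of the ribosomal genes was not tested, and in whole muscle fewer cells of a type and less RNA per cell cannot be told apart.

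**Figure D3:**
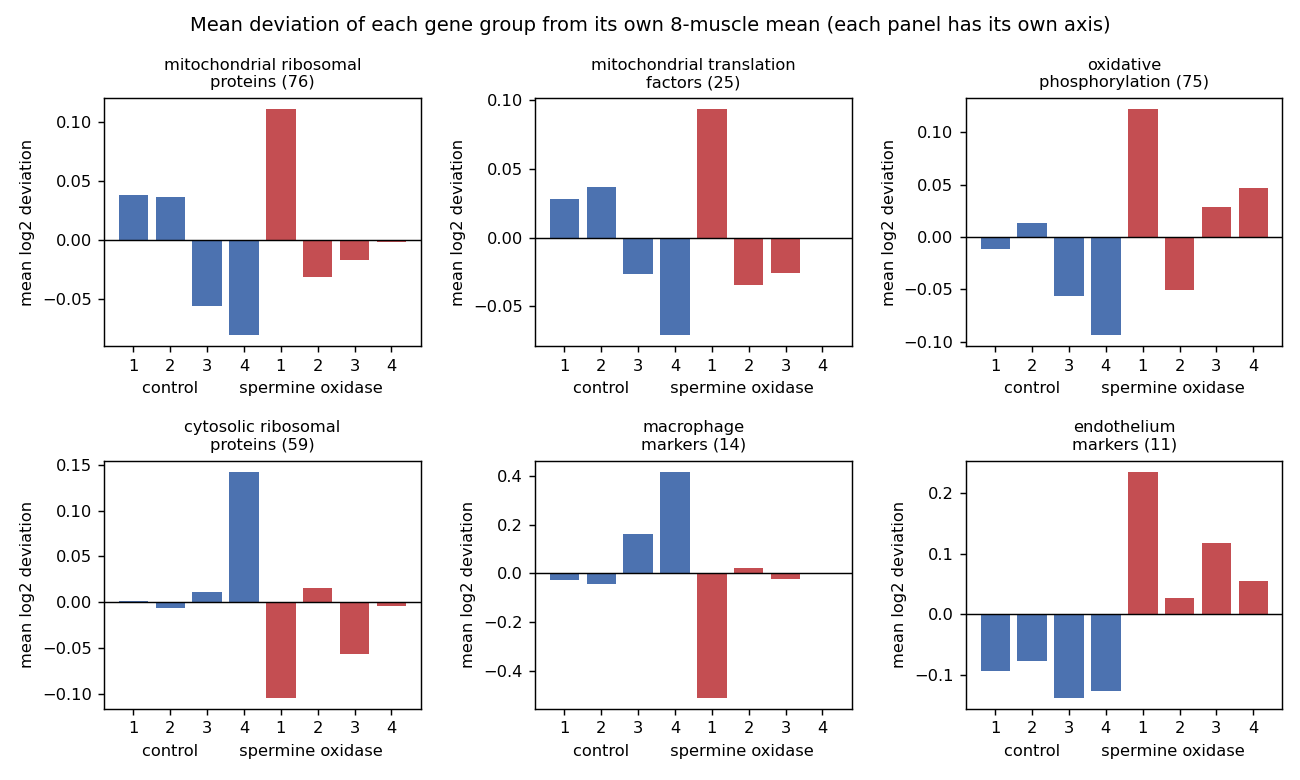
Mean log2 deviation from each gene's own 8-muscle mean (y axis, a separate scale in each panel) for 6 gene groups in the 4 control (blue) and 4 spermine oxidase (red) muscles, numbered by replicate, with the number of genes in parentheses. For the mitochondrial ribosome spermine oxidase replicate 1 is highest at 0.111 and control replicate 4 lowest at -0.080, and for macrophage markers these muscles are at the opposite ends.

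The ribosomal genes stood between the respiratory chain and the cytosolic ribosome. Of 75 measured genes of oxidative phosphorylation, whose core subunits the mitochondrial ribosome makes, 60 were higher, with a median difference of 0.061, 18 higher and 3 lower at an unadjusted p of 0.05 (6.33% and 4.72% of all genes), and 9 with groups that did not overlap (12.0%, beside 6.18% of all genes). They were led by the complex I genes Ndufb5 (0.50 ± 0.10) and Ndufa3 (0.21 ± 0.05) and the ATP synthase gene Atp5h (0.15 ± 0.04). Of 59 cytosolic ribosomal protein genes, which make up the ribosome of the cytoplasm, 12 were higher and 47 lower, with a median of -0.064, 1 higher and 9 lower at an unadjusted p of 0.05, and 7 with groups that did not overlap (11.9%, beside the same shares of all genes), led by Rps3 (-0.19 ± 0.05), Rpl19 (-0.26 ± 0.07) and Rpl28 (-0.14 ± 0.04). For the mitochondrial ribosome the median was 0.030. Without control replicate 4 and spermine oxidase replicate 1 it was -0.024. The medians of the other lists were not recomputed without these muscles, so their order there is not known. The cytosolic list was chosen after its values were seen. These counts stand side by side without a test of the difference between lists, and 0 genes of each list passed an adjusted p of 0.05 with limma.

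**Figure D4:**
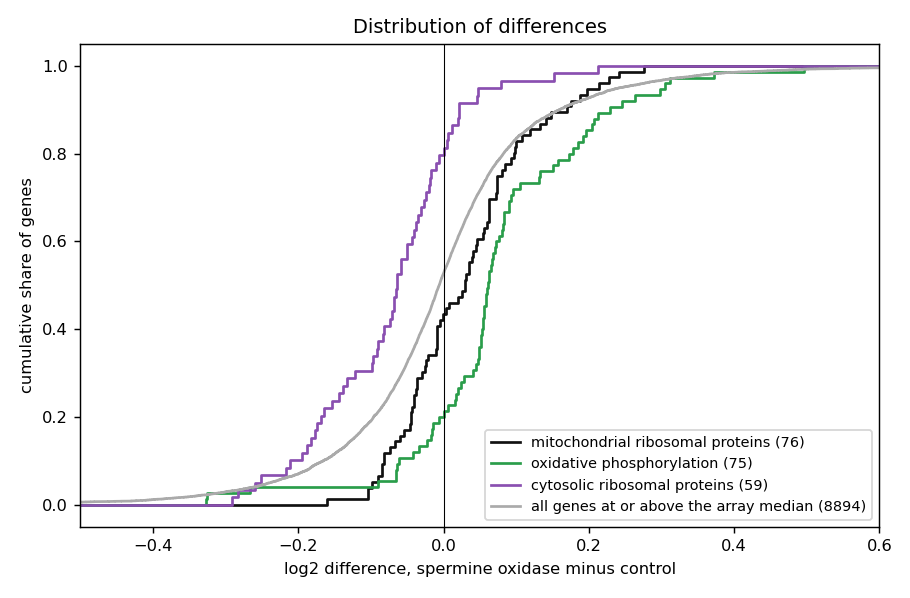
Cumulative share of genes (y axis) by log2 difference, spermine oxidase minus control (x axis), for the 76 mitochondrial ribosomal genes, 75 genes of oxidative phosphorylation, 59 cytosolic ribosomal genes and the 8894 genes at or above the array median. The curve of the mitochondrial ribosome, with a median of 0.030, runs between that of oxidative phosphorylation (0.061) and that of the cytosolic ribosome (-0.064).

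By median difference, the other parts of mitochondrial translation also differed little, from 0.0019 to 0.059. Some single genes differed by more, among them Gars here and Tfb2m, Perm1, Vdac1 and Vdac3 below. Of 4 measured mitochondrial ribosomal proteins with other names, Chchd1, of the small subunit, read 13.72 ± 0.06 in control and 13.90 ± 0.04 in spermine oxidase muscles (SD, n = 4) with no overlap (difference 0.18 ± 0.03, limma adjusted p = 0.179). Dap3, its GTP-binding protein, differed by 0.05 ± 0.04, Ptcd3, a pentatricopeptide protein of the small subunit, by 0.07 ± 0.11 and Gadd45gip1, of the large subunit, by -0.02 ± 0.03. Of 24 assembly factors 14 were higher, with a median of 0.017, and the smallest p-values belonged to Mterf4, which brings an RNA methyltransferase to the large subunit (-0.12 ± 0.05), Eral1, a GTPase of small subunit assembly (0.12 ± 0.05), and Ybey (0.08 ± 0.04). Of 25 genes of mitochondrial translation and RNA processing 13 were higher, with a median of 0.0019, led by the tRNA modifying enzyme Mto1 (0.11 ± 0.03), the release factor family gene Mtrf1 (0.16 ± 0.06) and the formyltransferase gene Mtfmt (-0.05 ± 0.02), the last near the floor. Of 16 aminoacyl-tRNA synthetases 11 were higher, with a median of 0.023. Gars, whose enzyme serves both cytosol and mitochondria, differed by -0.22 ± 0.07, Ears2 by -0.11 ± 0.04 and Aars2, near the floor, by 0.05 ± 0.02.

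Of 14 genes that copy and transcribe mitochondrial DNA 5 were higher, with a median of -0.023. Polg, the DNA polymerase subunit, differed by 0.09 ± 0.02, Tfb2m, a transcription factor, by 0.24 ± 0.11, and Mterf1a, a termination factor, by -0.06 ± 0.03. Polrmt, the RNA polymerase, differed by -0.11 ± 0.06 and Tfam, the packaging protein and activator, by -0.04 ± 0.09. Among 14 regulators of mitochondrial formation 6 were higher and the median was -0.0036. The coactivator gene Ppargc1a read 9.25 ± 0.19 in control and 9.31 ± 0.25 in spermine oxidase muscles (SD, n = 4), and Esrra, a nuclear receptor that works with it, differed by 0.19 ± 0.12. The genes of the factors whose letters were searched in the promoters differed by less than their standard errors. Nrf1 differed by -0.00015 ± 0.03, Gabpa, near the floor, by -0.0071 ± 0.03 and Yy1, at the floor, by 0.010 ± 0.019. Perm1, a muscle gene of the same pathway, differed by 0.37 ± 0.21 and Myc, at the floor, by -0.06 ± 0.02. Without spermine oxidase replicate 1 the difference was 0.20 for Perm1 and 0.086 for Esrra, and without control replicate 4 it was 0.26 and 0.12. Of 23 genes of import, dynamics and other mitochondrial proteins 18 were higher, with a median of 0.042, led by the channel genes Vdac3 (0.34 ± 0.11) and Vdac1 (0.40 ± 0.15) and the fusion gene Mfn2 (0.24 ± 0.10). With limma 0 genes of these lists passed an adjusted p of 0.05, and at an unadjusted p of 0.05 there were 1 of 4, 2 of 24, 3 of 25, 3 of 16, 1 of 14, 1 of 14 and 3 of 23 in the order given, beside 11.0% of all genes.

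Promoter letters were compared with the differences. The 26 members with the ETS letters were higher in 12 cases, with a median of -0.0095, and the 41 without them in 27 cases, with a median of 0.041. The 8 members with the YY1 letters were all higher, with a median of 0.077. In none of them were the groups without overlap, beside 6.18% of all genes. Of the 59 without these letters 31 were higher, with a median of 0.0076. Of the 7 with the NRF1 letters 1 was higher and the median was -0.041. These are counts over few genes with no test.

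Some of these genes start near the start of a gene on the other strand, and the share of all genes that do so was not counted. Of the 67 members with a promoter window, 25 had the start of another gene within 1000 bases upstream on the opposite strand, which makes 24 pairs since Mrps11 and Mrpl46 neighbour each other. Both genes of a pair were measured in 18 cases. They differed in the same direction in 6 pairs and in opposite directions in 12. Mrpl43, lower in all spermine oxidase muscles, starts 116 bases from Twnk, the mitochondrial DNA helicase gene, which lay near the floor and differed by 0.04 ± 0.03. Mrpl14 starts 131 bases from Tmem63b (-0.09 ± 0.10). Mrpl47, of the tunnel exit, starts 308 bases from Ndufb5, which encodes a complex I subunit. Ndufb5 read 11.28 ± 0.08 in control and 11.78 ± 0.22 in spermine oxidase muscles (SD, n = 4) without overlap, a difference of 0.50 ± 0.10 with a 95% interval of 0.26 to 0.73 (limma adjusted p = 0.190). Mrpl47 read 11.07, 10.96, 10.81 and 10.73 in control replicates 1 to 4 and 11.07, 10.69, 10.68 and 10.72 in spermine oxidase replicates 1 to 4, with a difference of -0.10 ± 0.11 and a 95% interval of -0.35 to 0.15. Of the neighbours in these 18 pairs only Ndufb5 had groups that did not overlap, beside 6.18% of all genes. This pair was picked after its values were seen, and the difference between the genes of a pair was not tested.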

How the data were processed

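Total RNA of 8 muscles was measured on Illumina bead arrays, 1 array for each muscle. Per the labels' protocols, the RNA came from a TRIzol extraction with column and DNase clean-up and was turned into biotinylated cRNA. The authors deposited log2 signals, a scale read from the values themselves. Sorted values of the arrays lay within 0.155 of each other at each rank, so between-array normalization preceded deposit; its method is not given in the sources used here. Precision is limited by the number of arrays. No file column was left without a sample.

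Of 25697 probes, 23978 had 1 gene in GEO's platform annotation, 0 had several and 1719 were unnamed here. The fit was limma 3.58.1 (lmFit and eBayes, two-sided, R 4.3.3) over all 16593 genes with p-values adjusted by Benjamini-Hochberg (threshold 0.05), without a replicate block. Single genes also had an exact permutation test, two-sided, over 70 splits of 4 against 4. No filter on dim probes was applied. Figures were drawn with matplotlib 3.10.9. Named genes are the members without overlap, the 10 higher and 6 lower with the smallest p-values, the 3 brightest and 3 dimmest, up to 3 genes of each other list by p-value and 7 genes named whatever their p-value. Acta1, Myh7, Yy1, Mrpl12, Mrpl35, Mrpl46, Mrpl47, Mrpl48, Mrps11 and Mrps18c were chosen after their values were seen. So were the neighbours and the list of cytosolic ribosomal genes. The NRF1 letters are a core of 8 bases, chosen after a longer form with fewer matches (10 bases) had been counted. The members and lists were chosen with earlier results of these data known. Alternatives were the replicate block, quantile and median normalization, leaving out the dimmest 40% of probes, averaging the probes of a gene, each probe singly, an intensity trend with a robust prior, a linear offset of 16 and leaving out muscles.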

Additional observations from a re-analysis of the deposited data

Results flagged for a closer look

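In groups of 4, a muscle was marked where its gap to the nearest other muscle was above Dixon's 95% value for the group's range. Of 44 groups checked 5 were marked, and chance marks about 1 in 20 groups. Spermine oxidase replicate 2 was lowest of its group for Mrpl14, at 11.88 with the next at 11.98. Spermine oxidase replicate 1 was highest for Mrps6, at 10.43 with the next at 10.26. Control replicate 4 was lowest of the control muscles for Mrps21 (11.99, next 12.28), Mrpl40 (10.69, next 10.86) and Mrpl19 (8.21, next 8.25, both at the floor). The values are given without an explanation.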

How the results depend on the processing

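With limma, 0 of the 76 genes passed the threshold under every alternative run except the replicate block, where 2 passed: Mrpl16 (0.21, adjusted p = 0.0279) and Mrpl43 (-0.16, adjusted p = 0.0492), beside 266 of 16593 genes (1.60%). The check used did not settle whether the numbers pair the samples. Deviations from the group means correlated at 0.60, -0.14, 0.67 and 0.60 for replicates 1 to 4. Muscles numbered 1, 3 and 4 each correlated best with the muscle of their own number. Control replicate 2 and spermine oxidase replicate 2 correlated best with another number. By number, 51, 21, 50 and 54 of the 76 genes were higher in the spermine oxidase muscle, and 13 were higher and 6 lower in all 4. The median difference of the members stayed within 0.064, its SD between muscles, of the value of 0.030 under all alternatives. That bound is wider than the median itself and does not show a stable sign. The median was -0.0024 to 0.040 with a muscle left out, when 0 to 0 members passed, and -0.024 without control replicate 4 and spermine oxidase replicate 1. Counts at an unadjusted p of 0.05 ran from 6 (intensity trend with robust prior) to 16 (replicate block). All 5 Smox probes stayed without overlap wherever this was recomputed (5 to 5 with a muscle left out); the block, trend, mean of probes and every-probe fits give no such count. Signs turned for some genes close to 0: Mrpl42 (-0.042) and Ppargc1a (-0.066) without control replicate 4 and spermine oxidase replicate 1, and Nrf1 there (0.012) and after median centring (0.0010). With a muscle left out, Gabpa ran from -0.026 to 0.0090, Mrps36 from -0.0043 to 0.019, Nrf1 from -0.030 to 0.013, Ppargc1a from -0.055 to 0.147 and Tfam from -0.118 to 0.018. The cause was not tested. Signal near the floor limits what dim probes can show.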
